A study of Mus musculus with 24 samples.

Results

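The mammalian circadian clock was followed in brain RNA through 10 of its core genes, Arntl, Clock, Npas2, Per1, Per2, Per3, Cry1, Nr1d1, Nr1d2 and Dbp. They were chosen by name, as textbook members of the clock loop, from the 52636 gene identifiers counted in each library, and all 10 were among the 19726 genes with enough counts to be tested. The libraries come from 24 mice in 4 groups of 6: syn-Cre+ EAAT2−/− mice with their syn-Cre− EAAT2+/+ controls, and gfapCre+ EAAT2Δ/+ mice with their gfap-Cre− EAAT2+/+ controls. EAAT2, encoded by Slc1a2, is the main glutamate transporter of the forebrain, and the study sets its deficiency in neurons (the syn line) beside its deficiency in astrocytes (the gfap line). The genotypes of the Cre-positive groups differ between the lines (−/− against Δ/+), so the lines differ in more than the Cre driver. The labels name the tissue only as brain and the drivers only as syn and gfap. The sources used here give no age, no sex and no hour at which each brain was taken, and for genes that rise and fall over the day that hour is part of every value below.

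The clock is a transcription loop that closes about once a day. ARNTL (also called BMAL1) pairs with CLOCK or with its relative NPAS2, and the pair binds E-boxes to switch on the Per and Cry genes, Nr1d1, Nr1d2 and Dbp. PER and CRY proteins then return to the nucleus and block that pair, while the nuclear receptors NR1D1 and NR1D2 (REV-ERB alpha and beta) shut off Arntl, Clock and Npas2, so that the activators peak at the opposite time of day from the Per genes, Nr1d1, Nr1d2 and Dbp. The suprachiasmatic nucleus of the hypothalamus holds the master clock, and neurons and astrocytes elsewhere in the brain carry clocks of their own. Per1 and Per2 also respond acutely to neuronal activity and to glucocorticoids.

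Most members drive or are driven through short promoter motifs, and the 250 bases before each start site were read from RefSeq on GRCm38.p6, where 9 of the 10 genes had an entry (Per2 did not). Both strands were searched for the E-box CACGTG, the D-box forms TTATGTAA and TTATGCAA to which DBP and its relatives bind, the cores TAGGTCA and TGGGTCA to which NR1D1 binds, and the cyclic AMP response element TGACGTCA. Of 32851 promoters of this length, 6.02% held the E-box, 0.819% and 0.694% the D-box forms, 2.23% and 3.24% the receptor cores and 1.55% the response element. Matches fell in 3 members, Per1, Per3 and Cry1, and no match overlapped another. These 3 promoters are printed because Per1 and Per3 are members that differed between the lines and Cry1 is the other one with an E-box. Each runs 5′ to 3′ on the gene's strand and ends at the base before the start site, with matches in capitals.
Per1, chr11:69098699-69098948, plus strand: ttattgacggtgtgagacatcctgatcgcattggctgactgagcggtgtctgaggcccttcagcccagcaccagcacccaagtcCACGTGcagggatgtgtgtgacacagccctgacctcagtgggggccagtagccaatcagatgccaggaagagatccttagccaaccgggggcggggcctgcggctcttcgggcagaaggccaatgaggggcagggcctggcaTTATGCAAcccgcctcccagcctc
Per3, chr4:151044666-151044915, minus strand: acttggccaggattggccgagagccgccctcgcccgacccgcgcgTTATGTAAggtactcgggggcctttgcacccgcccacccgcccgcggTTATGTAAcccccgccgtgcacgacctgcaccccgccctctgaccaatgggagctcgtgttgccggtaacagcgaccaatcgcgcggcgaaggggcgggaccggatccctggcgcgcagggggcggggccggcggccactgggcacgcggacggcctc
Cry1, chr10:85185055-85185304, minus strand: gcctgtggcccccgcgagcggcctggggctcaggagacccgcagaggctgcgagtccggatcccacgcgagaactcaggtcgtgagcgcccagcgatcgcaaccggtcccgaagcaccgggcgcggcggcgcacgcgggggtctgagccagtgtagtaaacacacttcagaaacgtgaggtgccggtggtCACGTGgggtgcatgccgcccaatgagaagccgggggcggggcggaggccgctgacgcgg
In Per1 the E-box stands 166 to 161 bases before the start of the printed window and a D-box of the TTATGCAA form 24 to 17 bases before it. Per1 had a further start site in RefSeq, whose window (chr11:69099902-69100151) held no match. Arntl and Clock also had more than 1 window. Per3 holds the TTATGTAA form at 205 to 198 and again at 158 to 151 bases before its start. Cry1 has its E-box at 60 to 55 bases. A match is only a match of letters, and its absence from the windows of the other members says nothing of more distant sites.

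Library depth was high for single genes. Counts in genes summed to 41596313 to 69652824 per library, and the members had from 545 counts (Cry1, the lowest) to 7437 counts (Clock, the highest) in a library. Slc1a2 itself averaged 3012 ± 213 CPM in syn-Cre-positive and 3322 ± 98.7 CPM in syn-Cre-negative libraries, and 3480 ± 290 CPM in gfap-Cre-positive and 3518 ± 542 CPM in gfap-Cre-negative libraries (SD, n = 6 each), and passed the test in neither line. Its log2 fold change was −0.14 (interval −0.30 to 0.016) in the syn line and −0.015 (interval −0.17 to 0.14) in the gfap line. Among gfap controls library 4 was lowest at 2494 CPM, with the next at 3430 CPM. The gfap fold change of Slc1a2 without that library was not computed. The targeted gene thus gives no firm check of the labels, and the groups are named here as labelled. CPM values are counts scaled to a common library size. Markers of neurons summed to between 6315 and 8858 CPM and markers of astrocytes to between 5139.5 and 6626 CPM in all libraries, while 7 of 11 hypothalamic markers passed the filter and summed to only 18.6 to 28.5 CPM. Some libraries stood apart. The choroid plexus gene Ttr was above 1000 CPM in 3 syn-Cre-positive and 3 syn-Cre-negative libraries and in no gfap library. Syn-Cre-negative library 2 had the highest Per1, Per2, Per3 and Cry1 of all 24, and gfap-Cre-negative library 4 held unusually little RNA of long transcripts. Member results that rest on these libraries are given with and without them. Syn-Cre-negative library 5 stood apart in its reads. There 7.46% of counts were ambiguous between genes (3.92% in the next highest library), and lines that name no gene held 39.8% (30.8% in the next). It was left out in turn like every other library.

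Per kilobase of exon the nuclear receptor genes were the most abundant members, and averaged over all libraries Cry1 and Arntl were the least. Over all 24 libraries Nr1d1 averaged 26.4 ± 2.96 CPM per kilobase and Nr1d2 20.7 ± 1.66 (SD). Per1 followed with 12.3 ± 1.75, Dbp with 9.62 ± 2.88 and Clock with 7.89 ± 0.73 CPM per kilobase, and Dbp lay within its spread of both neighbours. Npas2 at 5.81 ± 0.57, Per2 at 5.71 ± 1.17 and Per3 at 4.89 ± 1.10 lay within their spread of each other, as did Arntl at 4.05 ± 0.37 and Cry1 at 3.95 ± 0.40 CPM per kilobase. The place of Per3 depended on the line: it averaged 5.53 and 6.13 CPM per kilobase in syn-Cre-positive and syn-Cre-negative libraries, above Arntl at 3.92 and 3.87, but 3.97 and 3.92 in gfap-Cre-positive and gfap-Cre-negative libraries, within its spread of Arntl at 4.29 and 4.12. Nr1d1 shares 263 exonic bases (8.55% of its own) with Thra on the opposite strand and Dbp shares 539 (18%) with Sphk2, and since the sources used here give no strand setting of the counting, reads in those stretches cannot be assigned with certainty. Arntl shares 33 bases with Gm45355.

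The members differed in how far they ranged between animals. Dbp, a transcription factor gene known for a wide daily swing, ran from 17.7 to 56.0 CPM over the 24 libraries, a 3.16-fold range. Per3 ranged 2.33-fold (29.3 to 68.5 CPM), Per2 2.21-fold (25.7 to 56.8 CPM) and Per1 1.74-fold (52.2 to 90.7 CPM). The other 6 members ranged less, with 1.38-fold between the extremes for Arntl, 1.42-fold for Npas2, 1.43-fold for Cry1, 1.48-fold for Nr1d2 and 1.53-fold for both Clock and Nr1d1. Within groups the SD of Dbp was 0.40 on the log2 scale, at the 97.6th percentile of 13361 expressed genes, whose median was 0.13. Per2 stood at the 73.8th percentile with 0.18 and Per1 at the 65.4th with 0.16. Nr1d1, Per3, Clock and Cry1 stood between the 54.2th and the 65th percentile (0.14 to 0.16), while Arntl (0.13), Npas2 (0.12) and Nr1d2 (0.10) stood at the 47.2th, 44.6th and 27.5th.

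**Figure D1:**
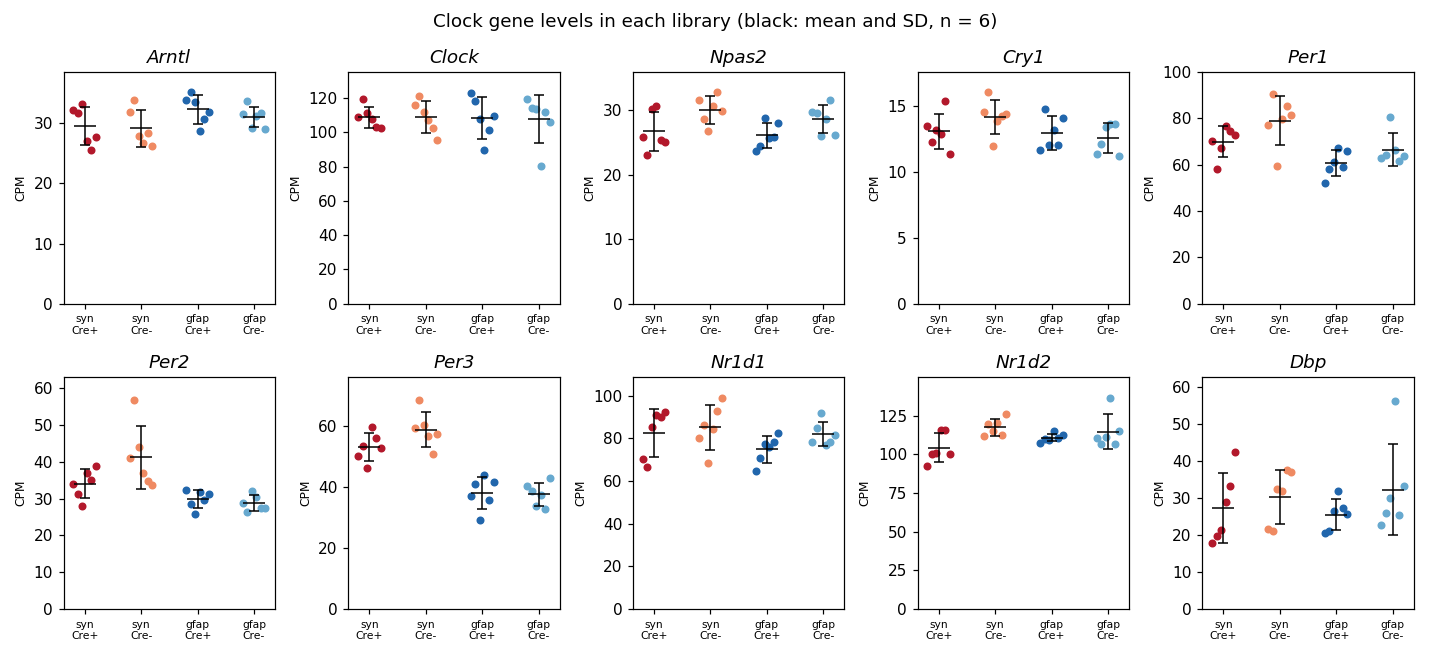
Level of each clock gene in CPM (vertical axis from 0, linear) in each of 24 libraries, in the order syn-Cre-positive, syn-Cre-negative, gfap-Cre-positive and gfap-Cre-negative; points are libraries, black bars the group mean and SD (n = 6). Per3 lies at 46.4 CPM or more in all syn libraries and at 44.1 CPM or less in all gfap libraries, and Dbp shows the widest scatter within groups, from 17.7 to 56.0 CPM over all libraries.

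The question in the syn line was whether neuronal EAAT2 deficiency altered the clock genes. No member passed the test there: 0 of 10 were called by edgeR's quasi-likelihood test at an adjusted p under 0.05, where 0.00507% of all genes (1 gene) were called. At an unadjusted p under 0.05 there were 4 members, Nr1d2, Per2, Npas2 and Per1, against 922 of all 19726 genes, and DESeq2 and limma-voom also called none of the 10. The log2 fold changes were below 0 for 9 of 10 members, with a median of −0.15, where 48.6% of all genes were above 0 and their median was −0.0029. With upper-quartile scaling Clock crosses 0 and the count is 8 of 10. The bulk RNA cannot tell fewer cells of a type from less RNA per cell.

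Among the repressors, Per2 had the lowest log2 fold change. It stood at 27.9, 34.6 and 38.8 CPM (lowest, median and highest) in syn-Cre-positive libraries, against 33.7, 38.9 and 56.8 CPM in syn-Cre-negative libraries. The groups overlapped, with 2 of 6 Cre-positive libraries below every control, and the highest control was library 2, with the next at 44.1 CPM. The log2 fold change was −0.28 (95% interval −0.48 to −0.076, SE 0.098, and edgeR adjusted p = 0.841). Without that library it was −0.16 (edgeR adjusted p = 1). Per1 had 58.0, 71.5 and 76.9 CPM in Cre-positive and 59.6, 80.5 and 90.7 CPM in Cre-negative libraries, a log2 fold change of −0.18 (interval −0.35 to −0.0032, edgeR adjusted p = 1). Library 2 was again the highest, and without it the value was −0.13. Per3, the third Period gene, had 46.4, 53.2 and 59.6 CPM in Cre-positive against 50.9, 58.4 and 68.5 CPM in Cre-negative libraries, a log2 fold change of −0.15 (interval −0.32 to 0.022). Cry1, the partner of the PER proteins, had 11.3, 13.01 and 15.3 CPM in Cre-positive against 11.9, 14.3 and 16.04 CPM in Cre-negative libraries. Its log2 fold change was −0.12 (interval −0.28 to 0.049).

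The activity gene Fos ranged from 2.75 to 12.6 CPM in syn-Cre-positive and from 2.34 to 27.0 CPM in syn-Cre-negative libraries, with medians of 5.20 and 7.21 CPM. The glucocorticoid-induced gene Tsc22d3 ranged from 41.6 to 58.5 CPM in syn-Cre-positive and from 55.6 to 103.5 CPM in syn-Cre-negative libraries, with medians of 48.3 and 62.1 CPM. Both highest values were those of syn-Cre-negative library 2, the library with the highest Period genes. In the comparison of syn-Cre-positive with syn-Cre-negative mice, all 15 genes of a glucocorticoid list had log2 fold changes below 0 (median −0.27) and 14 of 16 immediate early genes did (median −0.29), with none called in either list and 9 and 0 genes at an unadjusted p under 0.05. Summed levels of the glucocorticoid list ran from 422.6 to 487.1 CPM in syn-Cre-positive and from 488.5 to 698.3 CPM in syn-Cre-negative libraries, and those of the immediate early list from 529.6 to 746.8 CPM in syn-Cre-positive and from 494.8 to 1169 CPM in syn-Cre-negative libraries. The part of these genes in the Per values was not tested.

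Of the nuclear receptors, Nr1d2 had the smallest p of the members in the syn line. Its 6 Cre-positive libraries had 92.6, 100.7 and 115.8 CPM, against 111.8, 117.3 and 126.3 CPM in Cre-negative libraries, and 4 of the 6 were below every control. The log2 fold change was −0.17 (interval −0.29 to −0.056, SE 0.058, and edgeR adjusted p = 0.75). Nr1d1 had 66.4, 87.4 and 92.5 CPM in Cre-positive and 68.6, 85.2 and 98.9 CPM in Cre-negative libraries, which overlapped over nearly their whole range, with a log2 fold change of −0.045 (interval −0.22 to 0.13).

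The activators did not move as a group. Npas2, the forebrain relative of Clock, had 23.0, 25.6 and 30.7 CPM in Cre-positive and 26.8, 30.3 and 32.8 CPM in Cre-negative libraries. Of the 6 Cre-positive libraries 4 were below every control, and the log2 fold change was −0.17 (interval −0.31 to −0.027, SE 0.070, and edgeR adjusted p = 0.984). Arntl had 25.5, 29.6 and 33.2 CPM in Cre-positive and 26.2, 28.1 and 33.9 CPM in Cre-negative libraries, and its log2 fold change was 0.019 (interval −0.13 to 0.16). Clock had 102.3, 108.2 and 119.3 CPM in Cre-positive and 95.5, 109.5 and 121.0 CPM in Cre-negative libraries, with a log2 fold change of −0.0033 (interval −0.16 to 0.16). Dbp, an output gene of the loop, had 17.7, 25.1 and 42.4 CPM in Cre-positive and 21.2, 32.1 and 37.5 CPM in Cre-negative libraries. Its interval was the widest of all, −0.64 to 0.34 around a log2 fold change of −0.15. Without Cre-positive library 1 the value was −0.054, without Cre-positive library 6 it was −0.32, and by limma-voom it was −0.30.

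In the gfap line, which addresses astrocytic EAAT2 deficiency, none of the 10 clock genes passed the test, where 0.0101% of all genes (2 genes) were called, none had an unadjusted p under 0.05 (590 of all genes did), and DESeq2 and limma-voom called none. The signs were split 5 to 5 with a median log2 fold change of −0.018, against −0.0026 over all genes. Every adjusted p by edgeR was 1.

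Dbp had the lowest log2 fold change in that line, with 20.6, 26.05 and 31.8 CPM in gfap-Cre-positive and 22.8, 28.0 and 56.0 CPM in gfap-Cre-negative libraries. A single control, library 4, held the 56.0 CPM, and the log2 fold change of −0.34 (interval −0.83 to 0.15) became −0.11 without it. Per1 had 52.2, 60.1 and 67.4 CPM in Cre-positive and 61.6, 64.1 and 80.5 CPM in Cre-negative libraries, with 4 of 6 Cre-positive libraries below every control. Its log2 fold change of −0.14 (interval −0.31 to 0.037) was −0.078 without control library 3, which held the 80.5 CPM. Npas2 had 23.7, 25.8 and 28.8 CPM in Cre-positive and 25.99, 29.1 and 31.5 CPM in Cre-negative libraries (log2 fold change −0.13, interval −0.28 to 0.011). Here too 4 of 6 Cre-positive libraries lay below every control. Nr1d1 had 64.5, 76.6 and 82.5 CPM in Cre-positive and 76.8, 79.9 and 91.9 CPM in Cre-negative libraries (log2 fold change −0.13, interval −0.30 to 0.041).

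The remaining members of the gfap line had log2 fold changes between −0.046 and 0.057. Nr1d2 had 107.6, 110.4 and 115.0 CPM in Cre-positive and 106.6, 110.8 and 136.6 CPM in Cre-negative libraries, and its log2 fold change of −0.046 became 0.0084 without control library 4. Per2 had 25.7, 30.4 and 32.2 CPM in Cre-positive and 26.4, 28.1 and 32.2 CPM in Cre-negative libraries (log2 fold change 0.051, interval −0.15 to 0.25), and Per3 had 29.3, 38.9 and 44.1 CPM in Cre-positive and 32.9, 38.1 and 42.9 CPM in Cre-negative libraries (0.017, interval −0.16 to 0.19). These groups overlapped throughout. Cry1 had 11.6, 12.6 and 14.8 CPM in Cre-positive and 11.2, 12.7 and 13.6 CPM in Cre-negative libraries, Arntl 28.6, 32.6 and 35.1 CPM in Cre-positive and 29.0, 31.3 and 33.6 CPM in Cre-negative libraries. Their log2 fold changes were 0.046 and 0.057. Clock had 89.5, 108.6 and 123.0 CPM in Cre-positive and 80.5, 112.7 and 119.3 CPM in Cre-negative libraries. Its log2 fold change of 0.0094 (interval −0.15 to 0.17) became −0.064 without control library 4, the lowest.

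A test of whether the syn response differed from the gfap response called none of the 10 members, where 0.0101% of all genes were called. Per2 alone had an unadjusted p under 0.05 among the members, against 691 of all genes. Its 2 fold changes differed by −0.33 on the log2 scale (interval −0.61 to −0.042, SE 0.14, and edgeR adjusted p = 1), and by −0.21 without syn-Cre-negative library 2. For the other members the difference lay between −0.17 (Per3) and 0.19 (Dbp), and all of their intervals included 0. DESeq2 and limma-voom called none either.

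**Figure D2:**
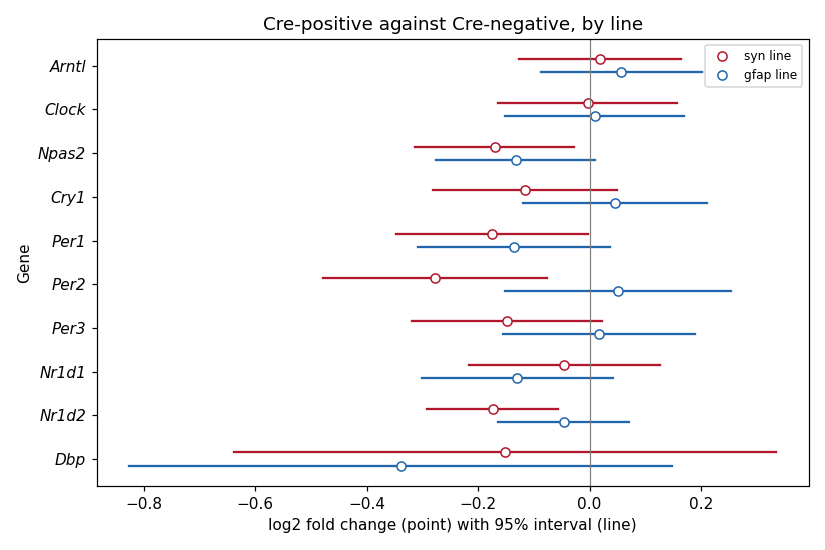
Log2 fold change of each clock gene, Cre-positive over Cre-negative mice, in the syn line (red, upper of each pair) and the gfap line (blue, lower); points are edgeR estimates, lines their 95% intervals (n = 6 per group), open because none passed an adjusted p of 0.05. In the syn line 9 of 10 points lie below 0, with Per2 lowest at −0.28; in the gfap line the points split 5 to 5 and Dbp, at −0.34, has an interval from −0.83 to 0.15.

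The Period genes were higher in the syn line than in the gfap line, among controls and, for Per3, also among Cre-positive mice. In the Cre-negative animals, labelled EAAT2+/+ in both lines, 3 of 10 members passed the test and all 3 were higher in syn mice, where 14.6% of all genes were called higher and 31.2% were called in either direction. In the Cre-positive animals 1 of 10 passed, Per3, where 12.8% of all genes were called higher and 27.5% in either direction. At an unadjusted p under 0.05 there were 4 and 2 members, where 41.9% and 38.8% of all genes were. With so many genes differing between the lines, 3 and 1 of 10 are shares near or below the background and no result about the clock genes as a set. The split of all calls depended on the scaling: 46.8% of them were higher in syn controls with the scaling used, 52.8% with RLE and 58.5% with upper-quartile factors, and 46.5%, 58% and 65.5% among Cre-positive mice.

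Per3 showed the clearest separation. Syn-Cre-negative libraries had 50.9, 58.4 and 68.5 CPM and gfap-Cre-negative libraries 32.9, 38.1 and 42.9 CPM. All 6 syn controls were above every gfap control, a separation that 11% of all genes showed in either direction. The log2 fold change was 0.64 (interval 0.47 to 0.82, SE 0.084, and edgeR adjusted p = 6.5e-06), or 1.56-fold. Among Cre-positive mice, syn libraries had 46.4, 53.2 and 59.6 CPM and gfap libraries 29.3, 38.9 and 44.1 CPM. Again all 6 were above all 6, as 13.3% of genes were in one direction or the other, and the log2 fold change was 0.48 (interval 0.31 to 0.65, SE 0.084, and edgeR adjusted p = 0.000198), or 1.39-fold. These comparisons share no animals, and Per3 was called higher in both under every tool, scaling, filter, covariate and left-out library that was tried.

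Per2 and Per1 separated the controls less widely. Per2 had 33.7, 38.9 and 56.8 CPM in syn-Cre-negative and 26.4, 28.1 and 32.2 CPM in gfap-Cre-negative libraries, without overlap. The log2 fold change was 0.52 (interval 0.32 to 0.72, SE 0.099, and edgeR adjusted p = 0.00039), or 1.43-fold, and it was 0.40 (edgeR adjusted p = 0.000772) without syn-Cre-negative library 2. Per1 had 59.6, 80.5 and 90.7 CPM in syn controls against 61.6, 64.1 and 80.5 CPM in gfap controls, which overlapped. Its log2 fold change of 0.25 (interval 0.073 to 0.42, SE 0.084, and edgeR adjusted p = 0.0272) was 0.20 with an adjusted p of 0.0814 without that library, and the call was also lost without syn-Cre-negative library 5 (adjusted p = 0.0589), gfap-Cre-negative library 1 (0.0552) or library 6 (0.0545).

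Among Cre-positive mice neither passed. Per2 had 27.9, 34.6 and 38.8 CPM in syn and 25.7, 30.4 and 32.2 CPM in gfap libraries, with 4 of 6 syn libraries above every gfap library and a log2 fold change of 0.19 (interval −0.014 to 0.39, edgeR adjusted p = 0.158). Per1 had 58.0, 71.5 and 76.9 CPM in syn and 52.2, 60.1 and 67.4 CPM in gfap libraries, also with 4 of 6 above, and a log2 fold change of 0.21 (interval 0.033 to 0.38, edgeR adjusted p = 0.0685). It passed in 7 of 9 other settings, with adjusted p from 0.0258 to 0.0414 there. Of the 15 genes of the glucocorticoid list, 4 were called higher in syn controls and 0 lower (median log2 fold change 0.24). Over all genes 14.6% were called higher there. Among Cre-positive mice 0 of the 15 were called higher in the syn line and 1 lower (median −0.056). The part of these genes in the line differences of Per1 and Per2 was not tested.

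The other 7 members did not pass between the lines. Cry1 came nearest among controls, where 5 of 6 syn libraries were above every gfap library (11.9, 14.3 and 16.04 CPM in syn, 11.2, 12.7 and 13.6 CPM in gfap) and the log2 fold change was 0.17 (interval 0.0087 to 0.34, edgeR adjusted p = 0.101). It was called in 3 other settings (edgeR adjusted p from 0.0394 to 0.0452). In Cre-positive mice its log2 fold change was 0.012. Arntl, whose product is the shared partner of CLOCK and NPAS2, had log2 fold changes of −0.089 among controls and −0.13 among Cre-positive mice (edgeR adjusted p = 0.35 and 0.185). The log2 fold changes among controls and among Cre-positive mice were 0.019 and 0.0062 for Clock, 0.072 and 0.034 for Npas2, 0.055 and 0.14 for Nr1d1, and 0.038 and −0.090 for Nr1d2. Dbp had −0.093 among controls and 0.094 among Cre-positive mice, with intervals of −0.58 to 0.39 and −0.39 to 0.58. Thra, whose exons overlap Nr1d1, was lower in the syn line by both comparisons (log2 fold change −0.31 and −0.30), while Sphk2, which overlaps Dbp, was not called (0.019 and −0.060).

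Markers of several cell types and regions differed between the lines, although bulk RNA cannot tell fewer cells from less RNA per cell. Of 9 oligodendrocyte markers, 8 were called higher among syn controls and all 9 among syn Cre-positive mice (median log2 fold change 0.37 and 0.59), and their summed level was 5488 to 8465 CPM in syn-Cre-negative and 4189 to 5350 CPM in gfap-Cre-negative libraries. Of 9 neuronal markers, 8 and 6 were called lower (median −0.22 and −0.23). Of 9 endothelial markers, 4 and 7 were called lower (median −0.23 and −0.32), and of 9 hippocampal markers 4 were called lower and 1 higher in each comparison (median −0.33 and −0.31). Of 10 astrocyte markers, 1 and 2 were called higher and 2 and 3 lower. Of 7 cerebellar markers, 0 and 2 were called higher and 2 and 2 lower. Of 8 thalamic markers, 0 and 3 were called higher and none lower. Other lists had few calls. Of 9 microglial markers, 1 and 2 were called lower and none higher, and of 8 cortical markers 1 and 0 were called lower and none higher. None of 8 striatal markers was called. Of 7 hypothalamic markers, 0 and 1 were called higher and 1 and 1 lower. Over all genes 31.2% and 27.5% were called in either direction. Of 15 choroid plexus markers, 15 and 13 were called higher (median 4.17 and 3.19). Summed choroid plexus markers ran from 324.4 to 7521 CPM in syn-Cre-negative and from 218.9 to 462.0 CPM in gfap-Cre-negative libraries, and from 289.7 to 6988 CPM in syn-Cre-positive and 227.7 to 543.1 CPM in gfap-Cre-positive libraries. Without the libraries above 1000 CPM of Ttr, Per3 was higher in the syn line by 0.68 among controls and 0.48 among Cre-positive mice (edgeR adjusted p = 0.000785 and 0.0126), and Per2 by 0.64 among controls (0.000949). Apart from choroid plexus, the part of these cell types and regions in the Period differences was not tested. The make-up of the reads differed by line too. Counts that fell in no annotated gene feature were 7.52 to 11.1% of each syn library and 4.47 to 6.37% of each gfap library. The 11.1% was that of syn-Cre-negative library 5, and the next highest syn library had 8.63%. The part of this in the Period differences was not tested. Line, strain background, batch and hour of collection cannot be told apart in this design.

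**Figure D3:**
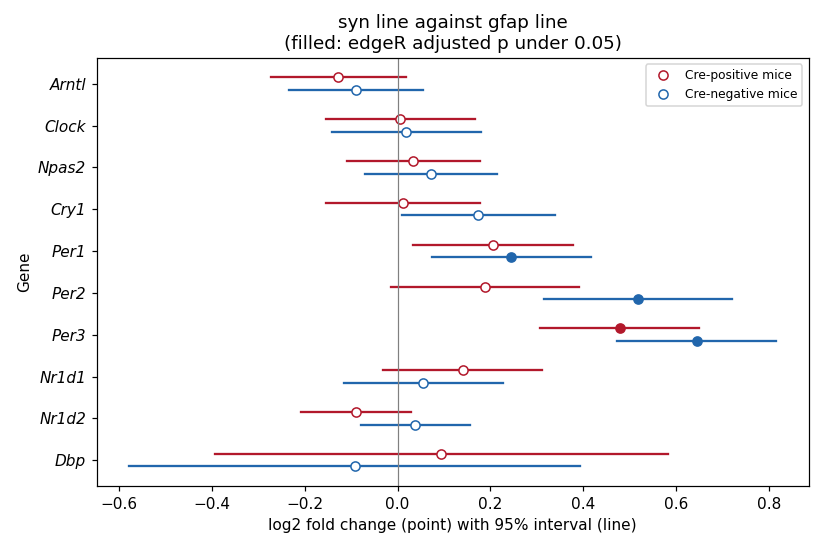
Log2 fold change of each clock gene, syn line over gfap line, in Cre-positive mice (red, upper of each pair) and Cre-negative mice (blue, lower); points are edgeR estimates, lines their 95% intervals (n = 6 per group), filled where the adjusted p is under 0.05. Per3 is filled in both comparisons, at 0.48 and 0.64; Per2 (0.52) and Per1 (0.25) are filled only among Cre-negative mice, and the other 7 genes are open.

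A wider list of 37 clock genes, all tested, gave the same picture within each line. It holds further repressors and transcription factors of the loop (12), kinases, ubiquitin ligases and cofactors (16) and output genes (9). In the syn line none was called, with 12 log2 fold changes above 0 and 25 below (median −0.029). The smallest p values belonged to Coq10b (−0.20, interval −0.42 to 0.0087), Noct (−0.092) and Hlf (−0.15, interval −0.32 to 0.016), a relative of Dbp. In the gfap line none was called either, with 16 above and 21 below 0 (median −0.0088), led by Gsk3b (−0.096), the repressor gene Ciart (−0.30, interval −0.66 to 0.071) and Usp2 (−0.11). The difference of the lines' responses was called for none, with Usp2 (0.18), Fbxl21 (0.28) and Rorb (−0.18) first by p. None of the 37 had an unadjusted p under 0.05 in any of these 3 comparisons, and DESeq2 and limma-voom called none of those named.

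Between the lines some genes of the wider list were called in each direction, a smaller share than of all genes. Among controls 3 of the 37 were called higher and 5 lower in syn mice (21.6%, against 31.2% of all genes), and among Cre-positive mice 3 higher and 4 lower (18.9%, against 27.5%). The coactivator genes Ncoa3 and Crebbp were higher among controls (0.36 and 0.31, edgeR adjusted p = 0.00127 and 0.00194) and among Cre-positive mice (0.30 and 0.22, edgeR adjusted p = 0.0069 and 0.0243). Arntl2, a paralog of Arntl, was higher by 0.45 in each comparison (edgeR adjusted p = 0.00878 and 0.00997). Tef, which encodes a relative of DBP that binds the same D-boxes, was lower, by −0.14 among controls and −0.21 among Cre-positive mice (edgeR adjusted p = 0.0203 and 0.000879). Nampt, a clock output gene of NAD synthesis, was lower by −0.14 in both comparisons (edgeR adjusted p = 0.0214 and 0.0258). Gsk3b, a kinase gene, was lower among controls (−0.21, edgeR adjusted p = 0.00593) and the deadenylase gene Noct among Cre-positive mice (−0.16, edgeR adjusted p = 0.0184). Of the 8 and 7 called genes, 6 were called in the same direction in both comparisons, Nono being the remaining one. The calls of Ncoa3 and Crebbp among controls and of Arntl2 among Cre-positive mice held in all 9 other settings and with each of 12 libraries left out. Nampt was called in 6 of 9 other settings among controls and in 4 of 9 among Cre-positive mice (edgeR adjusted p up to 0.0895 and 0.21), Tef in 5 of 9 among controls and 8 of 9 among Cre-positive mice (up to 0.231 and 0.0599), and Noct in 4 of 9 (up to 0.309). Gsk3b and Arntl2 among controls and Ncoa3 among Cre-positive mice lost their calls without the libraries above 1000 CPM of Ttr, which leaves fewer animals (edgeR adjusted p = 0.0994, 0.0633 and 0.0644), and Crebbp among Cre-positive mice with length tilt, described below, as a covariate (0.0553). Single libraries decided some calls too. Among controls Tef was lost without syn-Cre-negative library 4 or gfap-Cre-negative library 3 (edgeR adjusted p up to 0.0614), and Nampt without gfap-Cre-negative library 3, 4 or 5 (up to 0.114). Among Cre-positive mice Crebbp was lost without syn library 4 or gfap library 3 or 4 (edgeR adjusted p up to 0.0685), Noct without syn library 6 or gfap library 2 or 6 (up to 0.0606), and Nampt without syn library 5 or 6 or gfap library 1, 2, 5 or 6 (up to 0.106). All of these kept their direction.

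Each library was also placed on an axis of evening-phase against morning-phase clock genes. Evening-phase genes were Per1, Per2, Per3, Nr1d1, Nr1d2 and Dbp, and morning-phase genes Arntl, Clock and Npas2. The mean log2 CPM of the first set was compared with that of the second in each library. Cry1, whose peak lies between, was in neither set. The difference, evening minus morning, averaged 0.32 ± 0.25 in syn-Cre-positive and 0.43 ± 0.12 in syn-Cre-negative libraries, and 0.13 ± 0.18 in gfap-Cre-positive and 0.20 ± 0.21 in gfap-Cre-negative libraries (SD, n = 6 each). It is a score over the members and carries no test. Because genes differ in abundance, its zero has no meaning of its own and only differences between libraries can be read.

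Within groups the animals were spread widely on this axis. In syn-Cre-positive mice, libraries 4, 5 and 6 had 0.45, 0.58 and 0.59, and libraries 1, 2 and 3 had 0.13, 0.12 and 0.060, with no library between 0.13 and 0.45. The 6 syn-Cre-negative libraries lay between 0.24 and 0.62, so that 3 of the Cre-positive libraries were below every control and the other 3 were inside the range of the controls. In the gfap line, Cre-positive libraries ran from −0.022 to 0.43 and Cre-negative libraries from −0.012 to 0.52, and the groups overlapped over almost all of their range. The largest value of all 24 was 0.62, in syn-Cre-negative library 6, and the smallest −0.022, in gfap-Cre-positive library 1. In each group the library with the lowest length tilt, described below, had the highest value. In the syn line these were Cre-positive library 6 (tilt 0.90, value 0.59) and Cre-negative library 6 (0.87 and 0.62). In the gfap line they were Cre-positive library 4 (0.61 and 0.43) and Cre-negative library 4 (0.38 and 0.52). Syn-Cre-positive library 4 had 0.45 at a tilt of 1.04. The part of length tilt in this score was not tested.

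Deviations from the group mean also went with the library number, which follows accession order. Dbp was below its group mean in libraries 1 and 2 of all 4 groups (by −0.55 to −0.24 on the log2 scale) and above it in libraries 4 and 6 of all 4. Arntl was above its group mean in libraries 1 and 2 of all 4 groups and below it in library 6, and Clock was above it in libraries 1, 2 and 3 and below it in library 4. Nr1d1 was below its group mean in library 1 of all 4 groups. Nr1d2 was below it in libraries 1 and 3 and above it in library 4, and Per3 was above it in library 2. Npas2, Per1, Per2 and Cry1 had no number with the same sign in all 4 groups. The same count was not made over all genes, so the pattern cannot be called particular to these members. The labels do not say what the order of accessions or the numbers in the titles stand for, and the part of that order in the values within groups was not tested.

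The group means differed by −0.11 between syn-Cre-positive and syn-Cre-negative mice and by −0.067 between gfap-Cre-positive and gfap-Cre-negative mice, each less than the SD within the Cre-positive group. Between the lines the difference was 0.23 among controls and 0.19 among Cre-positive mice. Without the libraries above 1000 CPM of Ttr it was 0.17 and 0.079. The morning genes hardly differed. The evening genes had a mean log2 CPM of 5.94 in syn-Cre-negative against 5.71 in gfap-Cre-negative libraries and 5.78 in syn-Cre-positive against 5.62 in gfap-Cre-positive libraries. Morning genes had 5.51 in both groups of controls, and 5.46 in syn-Cre-positive against 5.49 in gfap-Cre-positive libraries. Among controls the log2 fold changes of the 3 Period genes were 0.64, 0.52 and 0.25 (Per3, Per2 and Per1), while Nr1d1, Nr1d2 and Dbp had 0.055, 0.038 and −0.093.

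**Figure D4:**
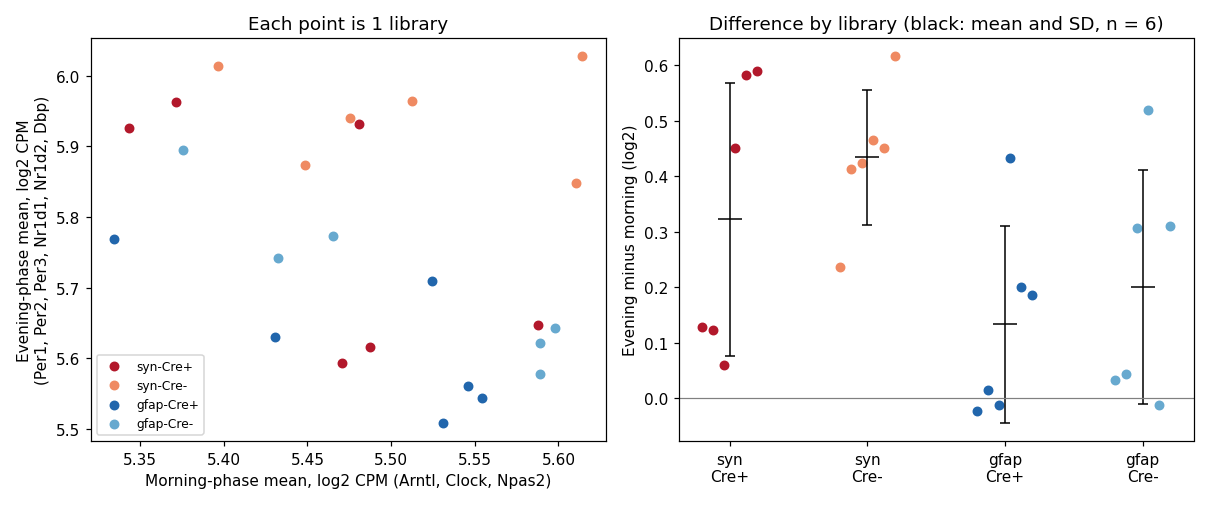
Left, mean log2 CPM of 6 evening-phase genes (vertical) against that of 3 morning-phase genes (horizontal), with 1 point per library; right, evening minus morning (log2) by group with group mean and SD (n = 6). Syn-Cre-positive libraries fall at 0.060 to 0.13 and at 0.45 to 0.59 with none between, while syn-Cre-negative libraries lie between 0.24 and 0.62. Values are not adjusted for length tilt.

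Whether the loop's partners and opponents followed each other from animal to animal was asked within each line, on deviations from the group mean (12 libraries a line, 20 relations, 100000 permutations within groups, two-sided). In the syn line Arntl and Dbp moved in opposite directions, with r = −0.86 (permutation p = 0.00318, adjusted p = 0.0456) and rho = −0.76 (adjusted p = 0.135). Within Cre-positive libraries r was −0.83 and within Cre-negative libraries −0.91, and it was −0.84 without the 2 libraries farthest from the median of Arntl. Arntl and Clock, whose products pair, moved together with r = 0.77 (permutation p = 0.00456, adjusted p = 0.0456) and rho = 0.72 (adjusted p = 0.135), or r = 0.72 without the 2 farthest. The rank correlations did not pass the adjustment. The permutations treat the libraries of a group as exchangeable, although Arntl, Clock and Dbp each kept 1 sign at several library numbers in all 4 groups. The genes of a pair share library and depth.

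In the gfap line the same pairs had r = −0.46 (Arntl and Dbp, permutation adjusted p = 0.445, rho = −0.61) and r = 0.51 (Arntl and Clock, adjusted p = 0.445, rho = 0.64). Without gfap-Cre-negative library 4 they were −0.84 and 0.80, each with a permutation adjusted p of 0.0447. None of the other 16 relations passed. Arntl with Nr1d1, its repressor, had r = −0.46 in the syn line and −0.43 in the gfap line (adjusted p = 0.445 and 0.514), and Arntl with Npas2 −0.015 and 0.23. Arntl with Per2 had 0.17 in the syn line, made of −0.77 within Cre-positive and 0.81 within Cre-negative libraries. Per1 had r = 0.27 and 0.18 with Fos and 0.28 and 0.51 with Tsc22d3 in the syn and gfap lines (permutation adjusted p from 0.445 to 0.819).

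Part of this variation ran along a property of the libraries. Clock has one of the longest transcripts of the expressed genes (9744 bases, 40.9% GC, at least as long as that of 96.4% of genes) and Dbp one of the shorter ones (1837 bases, 61.6% GC, 13.5%). Length tilt, chosen after the data were seen, is the mean log2 CPM of the fifth of genes with the longest transcripts minus that of the fifth with the shortest. It averaged 0.99 in syn-Cre-positive and 1.01 in syn-Cre-negative libraries, and 0.85 in gfap-Cre-positive and 0.87 in gfap-Cre-negative libraries, where library 4 was at 0.38. GC tilt is the same measure for GC content.

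Over 40 relations of members with the tilts, Clock rose with length tilt in the gfap line (r = 0.97, permutation p = 8e-05, adjusted p = 0.0016, rho = 0.89, r = 0.88 without the 2 farthest libraries) and Dbp fell with it (r = −0.94, permutation p = 0.00025, adjusted p = 0.0026, rho = −0.85, r = −0.77 without the 2 farthest). Clock belongs to the fifth with the longest transcripts and Dbp to the fifth with the shortest, so these directions are partly built into the measure. The share of all genes that follow the tilt as closely was not computed, so these values single out no clock gene. Nr1d2 had r = −0.88 (permutation adjusted p = 0.0266), which became −0.47 without the 2 farthest and so rests on those libraries. With GC tilt the gfap line gave r = −0.85 for Clock, 0.80 for Dbp and 0.62 for Nr1d2 (permutation adjusted p = 0.0016, 0.0026 and 0.0445). Nr1d2 thus had the signs of Dbp and not those of Clock. Its own transcript has 4663 bases and 41.8% GC, and is at least as long as that of 67.7% of genes. In the syn line none passed, with 0.76 for Clock and −0.64 for Dbp against length tilt (permutation adjusted p = 0.0542 and 0.101). After length tilt was removed from both genes, Arntl and Dbp had r = −0.81 and Arntl and Clock 0.71 in the syn line (permutation adjusted p = 0.102 and 0.118). The part of length tilt in these levels was not tested. Per3 had r = 0.23 in the syn and −0.029 in the gfap line with length tilt, and with length tilt as a covariate it was higher in the syn line by 0.64 among controls and 0.48 among Cre-positive mice.

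**Figure D5:**
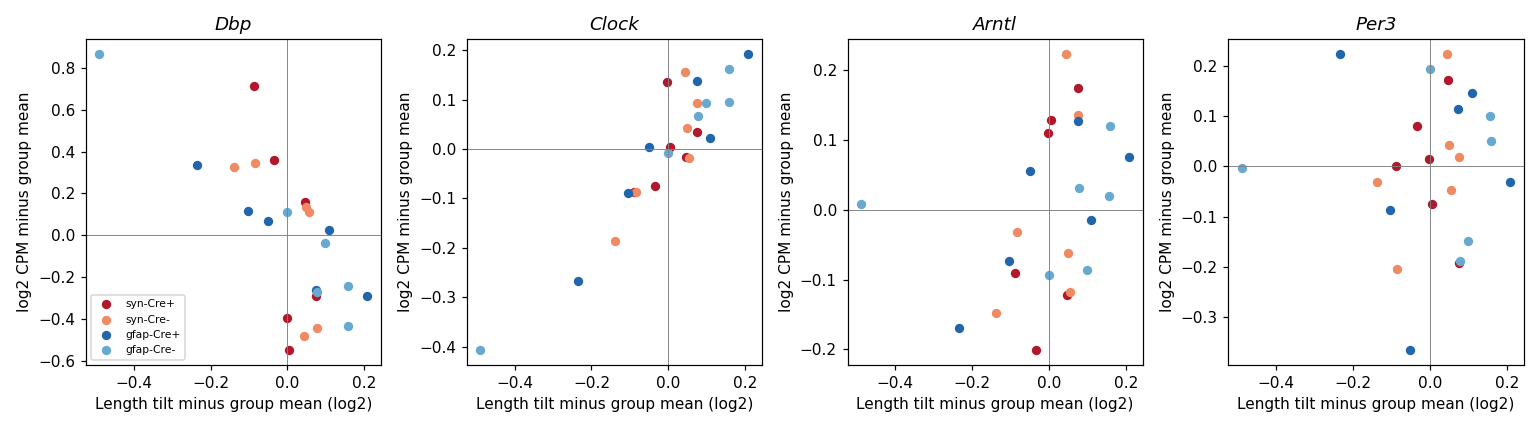
Deviation of Dbp, Clock, Arntl and Per3 from their group mean (log2 CPM, vertical; each panel has its own scale) against the deviation of the library's length tilt from its group mean (log2, horizontal), with 1 point per library and colours for the 4 groups. The point at the far left is gfap-Cre-negative library 4; in the gfap line Clock follows the tilt (r = 0.97), Dbp runs against it (r = −0.94) and Per3 does not follow it (r = −0.029).

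Outside the clock lists, the genes whose within-group deviations were most like those of Arntl over the 24 libraries, among 11985 genes compared and with no test, were Rbm41 (r = 0.81), Ptk2 (0.80), Rmnd5a (0.76), Kif21a (0.73) and Runx1t1 (0.72). For Dbp they were Slc25a1 (r = 0.89), C1qtnf12 (0.87), Cdk5rap3 (0.86), Bdh1 (0.85) and Slc22a17 (0.85). Taken by line, r was 0.63 to 0.89 for the genes of Arntl and 0.77 to 0.96 for those of Dbp. The genes were picked for high r over these same libraries, so the values by line are no separate check of the likeness. These genes share with the members the libraries' depth and tilt.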

How the data were processed

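RNA-seq of 24 mouse brain libraries, 6 animals per group, was used as gene counts deposited by the authors, whole numbers and not normalized. Per the submitters' processing notes, the tools were HISAT2 (no version in the sources used here), HTSeq 0.6.0 and DESeq2 1.6.3, on mm10. Strand setting and annotation release are not given in those sources. Symbols, exon lengths and coordinates come from GENCODE M21 on GRCm38, and 52403 of 52636 identifiers had a symbol (99.6%). Summary lines that name no gene held 26.2 to 39.8% of each file and were left out. Among 60 pairs of libraries within groups none was a copy of another.

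The 10 members, the gene lists, the tests and most alternatives were chosen with earlier results of these data known. Counts were filtered with filterByExpr (19726 genes) and TMM-scaled. A single model of 4 groups was fitted with edgeR 4.0.16 under R 4.3.3, with robust quasi-likelihood tests and Benjamini-Hochberg adjustment over all genes, and an adjusted p under 0.05 was called. The common dispersion was 0.0198 with 20 residual degrees of freedom. Comparisons were Cre-positive against Cre-negative mice of each line, the line difference of these, and syn against gfap within each genotype. Log2 CPM for scores and correlations used a prior count of 0.5. Alternatives were RLE and upper-quartile factors, 2 other filters, DESeq2 1.42.0, limma 3.58.1 voom, a choroid plexus covariate, each line alone, each library left out, and, added after the data were seen, length tilt and the removal of libraries high in Ttr. Voom was run with quality weights, which give each library its own weight, so its values differ from edgeR in weighting as well as in tool.

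Named were all members, in each comparison up to 6 called genes of the wider clock lists or else the 3 with the smallest p, and the 5 genes most alike to Arntl and to Dbp. Nono, Thra, Sphk2, Slc1a2, Ttr, Fos and Tsc22d3 were named beside them, some after their values were seen. The fit was checked on data simulated over 19726 genes, with 50 changed genes per size. In each comparison the changed genes of all sizes, 3-fold included, were planted together in a single simulated set. In the syn comparison 38% of those changed 1.25-fold, 52% of those changed 1.5-fold and 74% of those changed 2-fold were called, beside 7 false calls, and in the gfap comparison 46%, 56% and 64%, beside 5. The real Cre comparisons called only 1 gene (syn) and 2 genes (gfap), so the adjustment was stricter there. These shares therefore do not give the chance that a changed clock gene would have been called. At the members' counts the spread between animals, not counting error, limits precision. Per the labels replicates are mice, and their numbers follow accession order, so they name libraries and pair none.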

Additional observations from a re-analysis of the deposited data

Results flagged for a closer look

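Of 44 checks, each of a gene or of evening minus morning in a group, 4 found a single library far from the rest. Chance would give about 1 in 20, and all 4 were gene levels in the gfap-Cre-negative group. Library 4 was lowest for Clock at 80.5 CPM, with the other 5 between 106.0 and 119.3 CPM. The same library was highest for Nr1d2 at 136.6 CPM (others 106.6 to 115.2 CPM) and for Dbp at 56.0 CPM (others 22.8 to 33.2 CPM). It also had the lowest length tilt of all libraries, 0.38, and its part in these levels was not tested. Library 3 was highest for Per1 at 80.5 CPM, with the others between 61.6 and 66.2 CPM.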

How the results depend on the processing

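No paired analysis was possible because replicate numbers follow accession order and the labels pair no animals. The count of called members was 0 in both Cre comparisons and in their difference under every alternative. Among controls it was 3 as reported, 2 without a filter, 4 with at least 1 CPM in 6 libraries or without libraries high in Ttr, 3 otherwise, and 2 to 4 when single libraries were left out. Among Cre-positive mice it was 1 as reported, 2 under RLE, upper-quartile, the 1 CPM filter, DESeq2, voom, the choroid covariate, the removal of libraries high in Ttr and length tilt, and 1 to 2 with single libraries left out. The second gene was Per1, except under length tilt, where it was Clock, lower. All-gene calls in the syn line were 1 as reported, 5 without a filter, 14 by DESeq2, 7 by voom, 10 with length tilt, 2 with the line alone and 3 without libraries high in Ttr. Among Cre-positive mice they were 5416 as reported and 2259 without libraries high in Ttr, and among controls 6161 and 3647.

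Signs turned in 70 of 1190 member values, nearly all of them close to 0. Clock became 0.0035 (upper-quartile), 0.00072 (1 CPM), 0.028 (voom), 0.00071 (line alone) and 0.017 (length tilt) in the syn line, and by voom −0.028 in the gfap line and 0.056 in the difference. Between lines Clock became −0.051 (voom) and −0.094 (length tilt) among controls, and −0.011 (no filter) and −0.11 (length tilt, edgeR adjusted p = 0.0362) among Cre-positive mice. Dbp became −0.13 in the difference, 0.11 among controls and −0.019 among Cre-positive mice (voom), 0.21 among controls (length tilt), and −0.091 (choroid covariate) and −0.14 (without libraries high in Ttr) among Cre-positive mice. Cry1 among Cre-positive mice became −0.0053 (no filter) and −0.0051 (voom). Without libraries high in Ttr, Arntl became −0.020 in the syn line and 0.035 among controls, and Npas2 0.043 in the difference. For 17 member values the sign also turned when single libraries were left out. In the syn line the log2 fold change then ran from −0.017 to 0.067 for Arntl, from −0.099 to 0.011 for Nr1d1 and from −0.038 to 0.030 for Clock. In the gfap line the log2 fold change then ran from −0.064 to 0.058 for Clock, from −0.029 to 0.082 for Per3 and from −0.067 to 0.0084 for Nr1d2. In the difference the log2 fold change then ran from −0.082 to 0.0019 for Npas2, from −0.11 to 0.0095 for Per1, from −0.074 to 0.010 for Arntl, from −0.060 to 0.063 for Clock and from −0.040 to 0.29 for Dbp. Between lines among controls the log2 fold change then ran from −0.040 to 0.053 for Clock and from −0.18 to 0.15 for Dbp. Between lines among Cre-positive mice the log2 fold change then ran from −0.044 to 0.051 for Clock, from −0.011 to 0.073 for Npas2, from −0.040 to 0.070 for Cry1 and from −0.058 to 0.19 for Dbp.

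Per3 with Dbp in the syn line became r = 0.081 after removal of length tilt. Arntl with Dbp (−0.81) and with Clock (0.71) lost their calls there, as did Arntl with Clock (0.76) without the library of lowest tilt, while both pairs gained calls in the gfap line (−0.84 and 0.80) without it. Evening minus morning was recomputed with RLE factors, as z-scores, with Cry1 in the morning set and without Nr1d1 and Dbp. It was also recomputed without libraries high in Ttr and with single libraries left out. The other alternatives, length tilt among them, were not applied to it. It kept its sign in those applied, except that the difference of the Cre comparisons could turn when a single library was left out. With single libraries left out it ran from −0.17 to −0.060 (syn), −0.13 to −0.0032 (gfap), −0.11 to 0.015 (difference), 0.19 to 0.30 (controls) and 0.14 to 0.25 (Cre-positive). Without Nr1d1 and Dbp it was −0.14, −0.0069, −0.13, 0.35 and 0.23 in the same order, without libraries high in Ttr −0.15, −0.067, −0.087, 0.17 and 0.079, and with Cry1 in the morning set −0.096, −0.084, −0.012, 0.19 and 0.18. As z-scores, in units of each gene's SD and so on another scale, it was −0.40, −0.24, −0.15, 0.93 and 0.78. The causes were not tested. With 6 animals a group and no hour of collection, the intervals of Dbp leave changes of the reported size undecided.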
